A study of Asparagus officinalis with 12 samples.

Results

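The asparagus genes for the secondary wall cellulose synthases CESA4 (LOC109847015) and CESA7 (LOC109836391) were examined in stem segments of 4 elongation stages. The pair makes up 2 of the 35166 genes in the table of expression values and 2 of the 20352 genes that reached an FPKM (fragments scaled by gene length and by library) of at least 1 in at least 3 libraries. Both genes were chosen by name with their expression in these libraries already known, so their levels, fold changes and ratio are a description without a test. RNA came from tender stems of Asparagus officinalis 'Fengdao 2' sampled at a height of 10 cm (H-10), of 25 cm (H-25), of 40 cm (H-40) or of 60 cm (H-60), all untreated and grown in a rainproof greenhouse. Each stage had 3 of the 12 libraries. The table calls the stages H1 to H4 without giving a height, so the stage of every value below rests on reading these names as the heights in increasing order. The segment lay between 17 and 20 cm from the ground at the 3 later stages and between 3 and 6 cm at H-10. H-10 vs. H-25 is therefore a comparison of height and of position in the stem. At the 3 later stages the distance from the ground was the same, but the distance from the tip grew with height. A library held between 13468440 and 16980659 fragments. H-25 replicate 2 stood apart from the other H-25 libraries, and leaving it out moved the genes called in H-10 vs. H-25 to 2054, against 905 with it. The number of stems in a library is not stated, nor whether the 3 libraries of a stage came from separate plants, so the p-values below measure the spread between these libraries.

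Plant cellulose is spun at the plasma membrane by rosette complexes built from cellulose synthase A (CESA) subunits, which polymerise glucose from UDP-glucose into chains that crystallise as microfibrils. Growing cells use one set of CESA subunits for the thin primary wall, and cells of xylem vessels and fibres switch to another set when they lay down the thick secondary wall after expansion. In rice the secondary wall set is CESA4, CESA7 and CESA9, and in Arabidopsis it is CESA4, CESA7 and CESA8, where loss of any subunit collapses the xylem vessels. Secondary walls are completed with xylan, which coats the microfibrils, and with lignin, which fills and stiffens the wall.

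CESA7 (LOC109836391) lies on chromosome 4, from 3852514 to 3858746 on the minus strand of the RefSeq assembly Aspof.V1, and has a gene length of 3378 bases. CESA4 (LOC109847015) lies on chromosome 1, from 129214210 to 129223066 on the minus strand, with a gene length of 3403 bases. The subunit number of LOC109847015 depends on the species used for naming, since its RefSeq product is subunit 4 while its second description in the table is the Arabidopsis subunit CESA8. A further gene, LOC109844015 on chromosome 5 (77875272 to 77882091, minus strand), has both its product name and its second description as CESA9, so that the table holds each subunit of the rice secondary wall set under 1 product name. Another 12 genes are named after the subunits 1, 2, 5, 6 and 8, which brings the CESA genes to 15. Those named after subunit 8 have rice CESA8 or rice CESA2 as second description, not Arabidopsis CESA8. Neither rice name is in the rice set above, so they were counted among these 12. All 15 passed the filter on low values, and all but CESA4 and CESA7 were tested one by one.

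Transcripts of both genes were abundant in all 6 libraries from H-40 and H-60 stems and scarce in the earlier ones. The H-10 libraries had 6.49, 4.69 and 4.67 FPKM of CESA7, those of H-25 had 2.74, 8.95 and 2.31 FPKM, those of H-40 had 321, 482 and 461.5 FPKM, and those of H-60 had 859.8, 794 and 465 FPKM. Values of H-10 and H-25 overlapped, as did those of H-40 and H-60, and every library of H-40 and H-60 stood above every library of H-10 and H-25. Such a separation of the 6 later from the 6 earlier libraries was found for 13% of the tested genes, and for CESA4 and CESA7 it is part of the pattern for which they were chosen. For CESA4 the H-10 libraries had 9.61, 4.71 and 3.62 FPKM, those of H-25 had 2.39, 8.03 and 2.05 FPKM, those of H-40 had 315, 495 and 401 FPKM, and those of H-60 had 866, 736 and 476 FPKM. The stages of CESA4 overlapped in the same pairs, with its lowest late value at 315 FPKM and its highest early value at 9.61 FPKM. In bulk RNA of this kind, a change in the number of cells that express a gene and a change in its RNA per cell cannot be told apart.

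**Figure D1:**
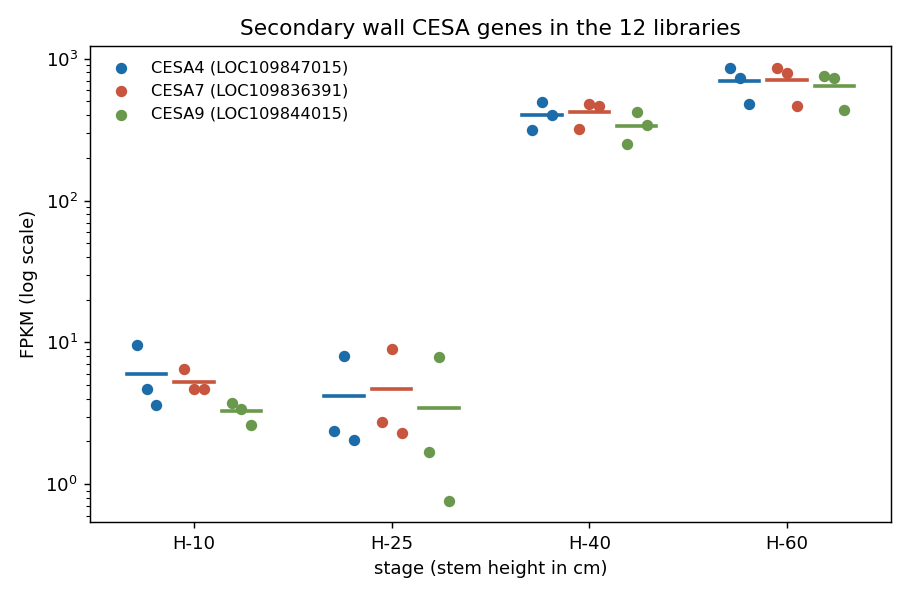
FPKM on a log axis of CESA4, CESA7 and CESA9 by stage, with 1 point per library (replicates 1 to 3 from left) and a bar at the mean of each stage. For CESA4 and CESA7 the points of H-40 and H-60 lie between 315 and 866 FPKM, against 9.61 FPKM or less at H-10 and H-25.

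The stage means followed the same order in both genes, with H-25 lowest, then H-10, H-40 and H-60. CESA7 averaged 5.28 ± 1.04 FPKM in H-10 libraries, 4.67 ± 3.71 in H-25, 422 ± 87.6 in H-40 and 706 ± 212 in H-60 (SD, n = 3 each). CESA4 averaged 5.98 ± 3.19 FPKM in H-10 libraries, 4.16 ± 3.36 in H-25, 404 ± 89.9 in H-40 and 693 ± 198 in H-60 (SD, n = 3 each). In that order, the libraries of the neighbours H-25 and H-10 overlapped, as did those of the neighbours H-40 and H-60, whereas those of H-10 and H-40 did not. Within same-numbered libraries of H-60 and H-40 the later one was higher in 3 of 3 pairs for both genes. The factors were 2.75, 1.49 and 1.19 for CESA4 and 2.68, 1.65 and 1.007 for CESA7. No source says that the numbers pair libraries, and the count depends on the numbering. H-60 replicate 3 (476 FPKM of CESA4, 465 FPKM of CESA7) lay below H-40 replicate 2 (495 and 482 FPKM). The mean of CESA7 at H-40 was 90.3 times that at H-25, and the mean of CESA4 was 97.1 times as high. From H-40 onward the step was small, with a mean at H-60 of 1.68 times that at H-40 for CESA7 and 1.72 times for CESA4. On the log2(FPKM + 1) scale the difference H-40 minus H-25 was 6.38 for CESA7 and 6.45 for CESA4, and H-60 minus H-40 was 0.72 and 0.76.

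A single library carried much of the H-25 means. In H-25 replicate 2 both genes were at 8.03 FPKM or above, against 2.74 FPKM or below in the other H-25 libraries. Without that library the H-40 mean was 166.7 times the H-25 mean for CESA7 and 181.8 times for CESA4, and the H-25 mean was 0.479 (CESA7) and 0.371 (CESA4) times the H-10 mean. Without H-25 replicate 1 or replicate 3 instead, the H-40 mean was 74.8 or 72.1 times the H-25 mean for CESA7. For CESA4 it was 80.1 or 77.5 times. The H-25 mean of CESA7 was then 1.07 or 1.11 times the H-10 mean, so H-25 was no longer its lowest stage. For CESA4 it was 0.842 or 0.871 times the H-10 mean. At H-60 it was replicate 3 that stood low, with 465 FPKM of CESA7 and 476 FPKM of CESA4, both inside the range of the H-40 libraries. Without it the H-60 mean was 1.96 times the H-40 mean for CESA7 and 1.99 times for CESA4.

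Counting error was small beside this spread. Between 16648 and 41229 fragments per library lay behind each value of CESA4 and CESA7 at H-40 and H-60, and between 116 and 627 at H-10 and H-25. The exact Poisson interval (95%) of the lowest CESA4 value, 2.05 FPKM in H-25 replicate 3, ran from 1.69 to 2.46 FPKM. These intervals, and those of the ratios below, cover counting error only. Ranked by FPKM among the tested genes, CESA7 was between places 9695 and 15494 in the H-10 and H-25 libraries, between 207 and 300 at H-40, and between 83 and 183 at H-60. CESA4 held places 9701 to 15874 in the early libraries, 197 to 310 at H-40 and 82 to 173 at H-60.

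FPKM is per length, which allows the levels of both genes to be set side by side within a library. The ratio of CESA4 to CESA7 was 1.48, 1.004 and 0.774 in H-10 libraries, 0.872, 0.897 and 0.886 in H-25, 0.981, 1.03 and 0.869 in H-40, and 1.01, 0.928 and 1.03 in H-60. It lay between 0.774 and 1.48 over levels that reached from 2.05 to 866 FPKM, and CESA7 was the higher gene in 7 of the 12 libraries. The stage means of the ratio were 1.09 ± 0.361 in H-10 libraries, 0.885 ± 0.0124 in H-25, 0.959 ± 0.0808 in H-40 and 0.987 ± 0.0521 in H-60 (SD, n = 3 each), and the stages overlapped apart from H-25 and H-60. The widest spread was that of H-10, where the exact binomial interval (95%) was 1.31 to 1.68 in replicate 1 and 0.637 to 0.941 in replicate 3, so that these libraries lay on opposite sides of 1 beyond counting error. The interval held 1 in 6 libraries, among them all 3 of H-25. The H-25 intervals (0.684 to 1.111, 0.779 to 1.032 and 0.684 to 1.147) each held all 3 H-60 ratios. Taken singly, each of these libraries thus lay within counting error of those ratios. Each interval covers a single library, so the intervals cannot decide whether the gap between both stages as a whole was counting error. That was not tested.

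**Figure D2:**
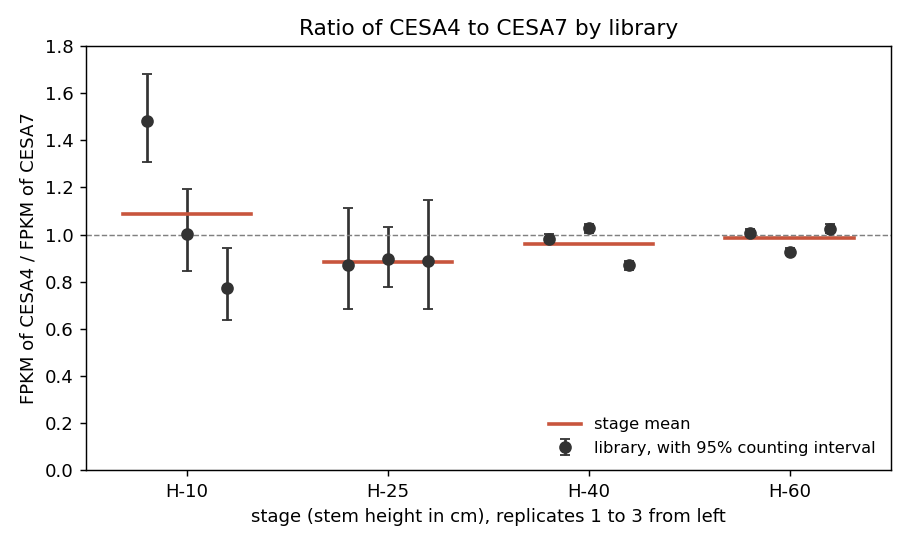
Ratio of the FPKM of CESA4 to that of CESA7 in each library, by stage, with 95% exact binomial intervals as error bars and the stage mean as a red bar. The ratio stayed between 0.774 and 1.48, with the widest spread at H-10 and the narrowest at H-25, where each interval was wider than that spread.

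CESA9 (LOC109844015), the remaining subunit of the set, ran close to both genes and below both in 12 of 12 libraries. It had 3.76, 3.40 and 2.63 FPKM at H-10, 1.68, 7.84 and 0.766 FPKM at H-25, 250.2, 422 and 343 FPKM at H-40, and 759, 733 and 435 FPKM at H-60. Its H-60 libraries did not overlap with its H-40 libraries, a separation seen for 14.8% of the tested genes in this direction, but the difference of 0.91 on the log2 scale did not pass the test (SE 0.47, adjusted p = 0.279, limma). H-40 minus H-25 was 6.58 (SE 0.47, adjusted p = 2.58e-06). Of the summed FPKM of the 3 subunits, CESA9 made up 28.2% to 32.4% in the H-40 and H-60 libraries and 14.9% to 31.6% in those of H-10 and H-25. CESA4 made up 32.5% to 35.5% late and 32.3% to 48.4% early, and CESA7 33.8% to 38.3% late and 32.7% to 45.1% early.

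Within the whole family, the 3 secondary wall subunits were a marginal share of summed CESA FPKM early and a large share late. They held 1.15% ± 0.26 of the summed FPKM of the 15 CESA genes at H-10, 1.17% ± 0.425 in H-25, 34.6% ± 2.38 in H-40 and 54.1% ± 8.55 in H-60 (SD, n = 3 each). The share at H-60 (45.0% to 62.0%) did not overlap with that at H-40 (32.9% to 37.3%). The other 12 CESA genes summed to 1228 ± 143 FPKM in H-10 libraries, 920.0 ± 509 in H-25, 2182 ± 327 in H-40 and 1679 ± 156 in H-60. Their H-60 sum was thus 0.77 times the H-40 sum, whereas CESA4 and CESA7 stood 1.72 and 1.68 times as high at H-60. These 12 include short entries, such as LOC109845878 (931 bases) and LOC109834437 (1172 bases). Since FPKM is per length, such sums would count a transcript more than once if short entries were parts of longer genes. This was not tested, so the shares hold for the entries as annotated. As a share of all fragments, the 3 subunits took 0.319% to 0.835% of a library at H-40 and H-60 and 0.0019% to 0.008% at H-10 and H-25.

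**Figure D3:**
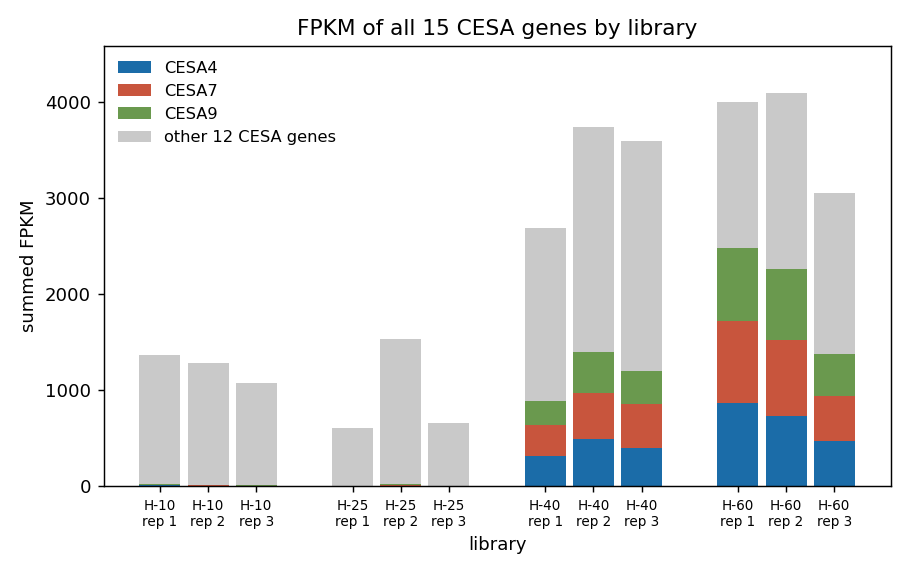
Summed FPKM of the 15 CESA genes in each of the 12 libraries, with CESA4, CESA7, CESA9 and the other 12 genes stacked. The 3 coloured parts hold 32.9% to 62.0% of the bar at H-40 and H-60 and are barely visible at H-10 and H-25.

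The other 12 CESA genes were tested one by one with limma, with a call at an adjusted p of at most 0.05 and a log2 change of at least 1. In H-25 vs. H-40, where 11.9% of the tested genes were called higher and 12.2% lower, 7 of the 12 rose and 0 fell. The log2 changes of these 7 ran from 1.11 (LOC109841011, named after subunit 6) to 2.33 (LOC109834437, named after subunit 8), against 6.38 and 6.45 for CESA7 and CESA4. At an unadjusted p under 0.05, 9 of the 13 genes that include CESA9 were higher and 0 lower. Of the 20352 tested genes, 10049 differed at that threshold in either direction. The call of LOC109841011 was lost when H-25 replicate 1, H-25 replicate 3 or H-40 replicate 2 was left out (log2 change 0.83 to 0.90, adjusted p = 0.0871 to 0.0975, limma), and with only the 2 stages compared (1.11, adjusted p = 0.0737). LOC109845371, named after subunit 1 and the most abundant of those that rose, averaged 562 FPKM at H-40 and 216 FPKM at H-25 (log2 change 1.58, adjusted p = 0.00638). LOC109843790 (subunit 5) changed by 1.90, LOC109834482 (subunit 8) by 1.92, LOC109820019 (subunit 8) by 1.46 and LOC109826812 (subunit 8) by 1.17. LOC109845878, also named after subunit 1, averaged 483 FPKM at H-40 and 251 FPKM at H-25, and its log2 change of 0.98 missed the fold criterion (adjusted p = 0.00558). The other genes that did not pass were LOC109828772 (0.77), LOC109841019 (0.64), LOC109847523 (0.62) and LOC109836559 (-0.16). In H-40 vs. H-60 and in H-10 vs. H-25 none of the 13 CESA genes tested beside CESA4 and CESA7 passed the limma test, where 5.31% and 4.45% of all tested genes did. At an unadjusted p under 0.05, 0 of the 13 differed in H-40 vs. H-60 and 4 in H-10 vs. H-25, and limma-voom on fragment counts called 0 and 3. Leaving out H-25 replicate 2 moved the count in H-10 vs. H-25 to 6 of the 13, all lower at H-25. Among them were LOC109841011 (-1.65, adjusted p = 0.00087, limma) and LOC109841019 (-1.56, adjusted p = 0.00202). Of all 20352 tested genes, 1159 were then lower and 895 higher. TPM called 3, and quantile normalization and the replicate block called 2 each, all lower at H-25. In H-40 vs. H-60 there were 0 under each of these settings. Of all tested genes, TPM called 1065 lower in H-10 vs. H-25, quantile normalization 529 and the replicate block 683.

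Genes of the wall pathway around both subunits were taken as 8 lists of product names, which were drawn up with earlier results of these data known. They hold 203 genes beside CESA4 and CESA7, of which 155 were tested. In H-25 vs. H-40, 83 of the 155 rose and 7 fell (58.1% called, against 24.1% of all tested genes), and the median log2 change of the lists was 1.2 against 0.01 for all tested genes. In H-10 vs. H-25, 1 rose and 7 fell with a median of -0.29 (1.54% of all tested genes rose and 2.91% fell), and in H-40 vs. H-60, 17 rose and 4 fell with a median of 0.20 (3.02% rose and 2.28% fell). Without H-25 replicate 2, the library in which CESA4 and CESA7 stood apart, 2 rose and 42 fell in H-10 vs. H-25, out of 895 and 1159 among all tested genes. Since H-25 enters both of the first 2 comparisons and H-40 both of the last 2, the counts are not independent.

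In H-25 vs. H-40, 11.9% of all tested genes rose and 12.2% fell. Of the genes that act on cellulose with the synthases, 6 of 13 rose at H-40 and 0 fell. COBRA-like protein 4 (LOC109851253), whose Arabidopsis counterpart is needed for cellulose in secondary walls, averaged 284 ± 33.7 FPKM at H-40 and 5.63 ± 6.72 FPKM at H-25 (SD, n = 3 each, log2 change 5.90, adjusted p = 1.03e-05, limma). The chitinase-like protein 1 genes, whose Arabidopsis counterpart affects cellulose content and cell expansion, were abundant at both stages and rose less, by 1.79 (LOC109839758, adjusted p = 0.000486) and 1.28 (LOC109843802, adjusted p = 0.00416). UDP-glucose supply counted 6 genes up and 1 down of 11. Sucrose synthase 2 (LOC109845351), which splits sucrose into fructose and UDP-glucose, averaged 2750 FPKM at H-40 and 189 FPKM at H-25 (log2 change 4.0, adjusted p = 3.99e-05), while the UTP-glucose-1-phosphate uridylyltransferase LOC109848462, the other route to UDP-glucose, stood at 537 FPKM at H-40 and 568 FPKM at H-25 (log2 change -0.06). The abundant sucrose synthase 2-like gene LOC109820065 did not pass (1.21, adjusted p = 0.064).

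Xylan synthesis had the highest median, 2.41, with 18 of 26 genes up and 1 down in H-25 vs. H-40. Of all tested genes, 11.9% rose and 12.2% fell there. IRX10L (LOC109823871), a xylosyltransferase of the xylan backbone, averaged 348 FPKM at H-40 and 45.4 FPKM at H-25 (log2 change 2.92, adjusted p = 5.48e-06). UDP-glucuronic acid decarboxylase 6 (LOC109819987), which makes UDP-xylose, rose by 3.16, and a glucuronoxylan 4-O-methyltransferase 1-like gene (LOC109826029), which methylates the side chains, by 3.09. Of the lignin genes, 25 of 56 rose and 2 fell. The laccase-4-like gene LOC109849561, of the enzymes that polymerise lignin in the wall, averaged 595 FPKM at H-40 and 1.98 FPKM at H-25, and its log2 change of 7.91 (adjusted p = 3.48e-07) was above those of CESA4 and CESA7. The trans-cinnamate 4-monooxygenase-like gene LOC109846559 rose by 3.51 and the cinnamyl alcohol dehydrogenase LOC109841100 by 3.64, early and late steps of monolignol synthesis.

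**Figure D4:**
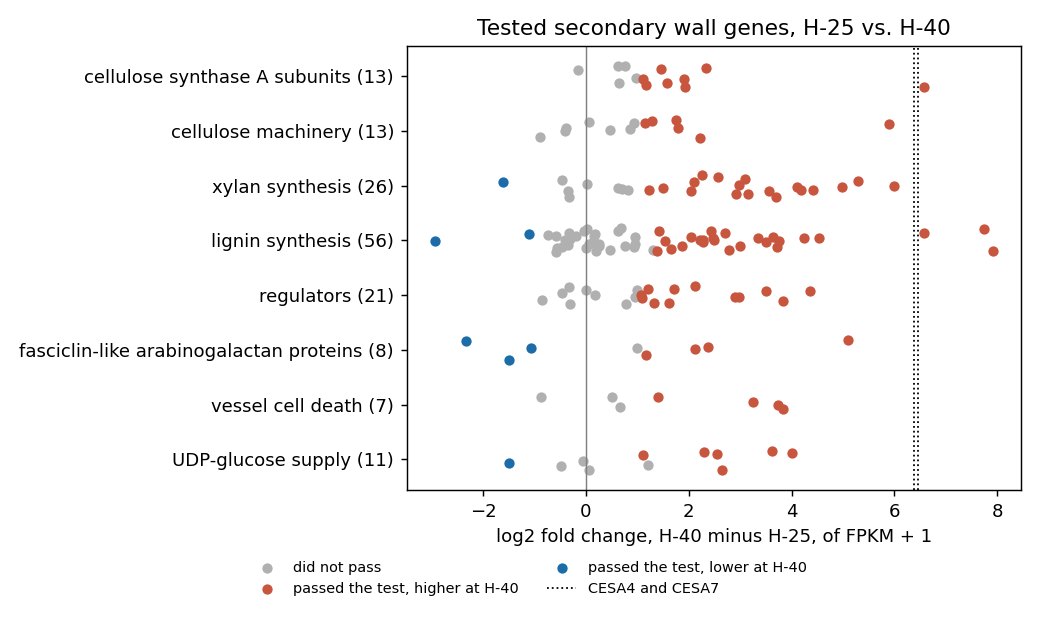
Log2 fold change (H-40 minus H-25, of FPKM + 1) of the 155 tested genes of the 8 lists, with the number tested in brackets and 1 point per gene, coloured by the result of the limma test. The dotted lines mark CESA7 (6.38) and CESA4 (6.45), which were not tested, and only few points lie near or beyond them.

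Among 21 regulators, 12 rose in H-25 vs. H-40, 0 fell (1 at an unadjusted p under 0.05) and 9 did not pass. Of all tested genes, 11.9% rose and 12.2% fell in this comparison. The more abundant MYB86-like gene LOC109849914 rose by 2.13 (adjusted p = 0.00507), whereas the MYB86-like gene LOC109847524 (0.95) and the NAC83-like gene LOC109824436 (0.17) did not pass. Chosen after their values were seen, the MYB26-like gene LOC109835796 (4.35), the MYB46-like gene LOC109822703 (3.84) and the NAC73-like gene LOC109840772 (3.50) also rose, and in Arabidopsis MYB26 and MYB46 are switches of secondary wall formation. The fasciclin-like arabinogalactan proteins moved both ways, with 4 up and 3 down of 8, and FLA12 (LOC109850468), whose Arabidopsis counterpart belongs to stem fibres, averaged 1780 ± 376 FPKM at H-40 and 79.3 ± 91.0 FPKM at H-25 (log2 change 5.09, adjusted p = 0.000254). FLA9 (LOC109835209) rose by 2.38 and FLA7 (LOC109840099) by 1.17, although the call of FLA7 was lost without H-25 replicate 1 or 3 or H-40 replicate 2 or 3 (log2 change 0.91 to 1.14, adjusted p = 0.0667 to 0.112, limma), without the filter (1.17, adjusted p = 0.0578) and with only the 2 stages compared (1.17, adjusted p = 0.0627). Of the genes of vessel cell death, 4 of 7 rose, among them metacaspase-9 (LOC109822451, 3.74) and the xylem cysteine protease genes LOC109843651 (3.83) and LOC109840978 (3.26).

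In H-40 vs. H-60, 3.02% of all tested genes rose and 2.28% fell, and CESA7 and CESA4 differed by 0.72 and 0.76. Lignin genes, the largest list with 56 of the 155 tested genes, were 10 of the 17 list genes that rose. Their count was 5 without H-40 replicate 3 and 4 at a mean FPKM of at least 5. Neither limma nor voom called a gene of the CESA and cellulose machinery lists, of which 0 and 2 had an unadjusted p under 0.05, and xylan synthesis had 1 call. The cytochrome P450 84A1-like gene LOC109843294 (4.2, adjusted p = 0.00233), of the branch to syringyl lignin, and the caffeoylshikimate esterase-like gene LOC109848275 (2.80, adjusted p = 9.27e-05) rose most of the lignin genes, and both were chosen after their values were seen. The laccase-4-like gene LOC109849561 did not pass (-0.65). Of the 21 regulators, 5 rose and 1 fell, and the one that fell was the MYB86-like LOC109847524 (-1.64, adjusted p = 0.0095). The cysteine protease LOC109840978 rose again, by 1.30 (adjusted p = 0.00918).

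The pattern of other genes was compared with CESA4 and CESA7 by Pearson's r of log2(FPKM + 1) over the 12 libraries, and the smaller of a gene's r with each was taken as its likeness. CESA4 and CESA7 had an r of 0.998 with each other. The points are libraries of 4 stages with a large gap between H-25 and H-40, so a gene that follows the stages has a high r, and 1406 of the other 20350 tested genes (6.91%) had a likeness of at least 0.9, 500 of them (2.46%) at least 0.95. Among the 155 tested list genes 50 (32.3%) reached 0.9. Of the 21 regulators 6 did so, and their median was 0.728. Regulators below 0 were the NAC76-like gene LOC109826344 (-0.512), the NAC101-like gene LOC109831649 (-0.335), the NAC7-like gene LOC109822675 (-0.132) and the NAC83-like gene LOC109824436 (-0.127). The 20 closest genes ran from 0.9895 to 0.997, and 5 of these were on the lists.

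CESA9 was the closest gene, at 0.997. The next was IRX14H (LOC109822132), a xylosyltransferase of the xylan backbone, at 0.996, with 12.04, 7.40 and 4.95 FPKM at H-10, 4.88, 10.1 and 2.51 FPKM at H-25, 226.5, 248.3 and 245.1 FPKM at H-40, and 430.1, 388 and 249.3 FPKM at H-60. As with CESA4 and CESA7, its H-25 replicate 2 was the high library of H-25 and its H-60 replicate 3 the low library of H-60. This follows in part from its choice by r over these same libraries. A polygalacturonase (LOC109833601, 0.996), of a family that cuts pectin, averaged 2.81, 1.97, 203 and 276 FPKM over the stages H-10 to H-60. Galacturonosyltransferase 12 (LOC109833298, 0.996), whose Arabidopsis counterpart is needed for secondary wall xylan, averaged 1.55, 2.09, 151 and 198 FPKM over the same stages.

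Next came a vacuolar-sorting receptor 6-like gene (LOC109845058, 0.995) and LOC109823914 (0.994), which the table matches to O-fucosyltransferase 8. The stem-specific protein TSJT1-like gene LOC109822736 (0.994), heparanase-like protein 3 (LOC109822035, 0.994) and LOC109822989 (0.993), matched to O-fucosyltransferase 24, followed, and COBRA-like protein 4 came in place 10 (0.993). The places from 11 to 20 held the kinesin KIN-14Q (LOC109831861), trichome birefringence-like 38 (LOC109828827), a laccase-3-like gene (LOC109819580), a myb-related protein Zm1-like gene (LOC109837123), IRX10L, a ribonuclease Y-like gene (LOC109823610), the kinase At1g54610 (LOC109850105) and LOC109837505, LOC109837352 and LOC109847648, for which the table has no product name beyond the identifier. Their levels were far apart, since at H-60 IRX10L averaged 623 FPKM and the myb-related gene 15.0 FPKM. The laccase-3-like gene was the closest lignin gene, with 1.70, 1.82, 260.5 and 289 FPKM over the stages.

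Within stages the likeness was lower. Taking each library's deviation from its stage mean, CESA4 and CESA7 had an r of 0.935, and the 20 genes ran from 0.485 (the myb-related gene) to 0.942 (galacturonosyltransferase 12), with 12 of the 20 at or above 0.8. Of the other tested genes 2.2% reached 0.8. The 20 genes were chosen by r over the same libraries, which contains these deviations. Their share at or above 0.8 is therefore not independent of the choice. Of the 20 genes closest within stages, only galacturonosyltransferase 12 and heparanase-like protein 3 were also among the 20 closest over all libraries. First within stages was the glucuronoxylan 4-O-methyltransferase 1-like gene LOC109826029, at 0.954. These 12 deviations share the same libraries and their scaling, so that anything a library did to many genes enters r.

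**Figure D5:**
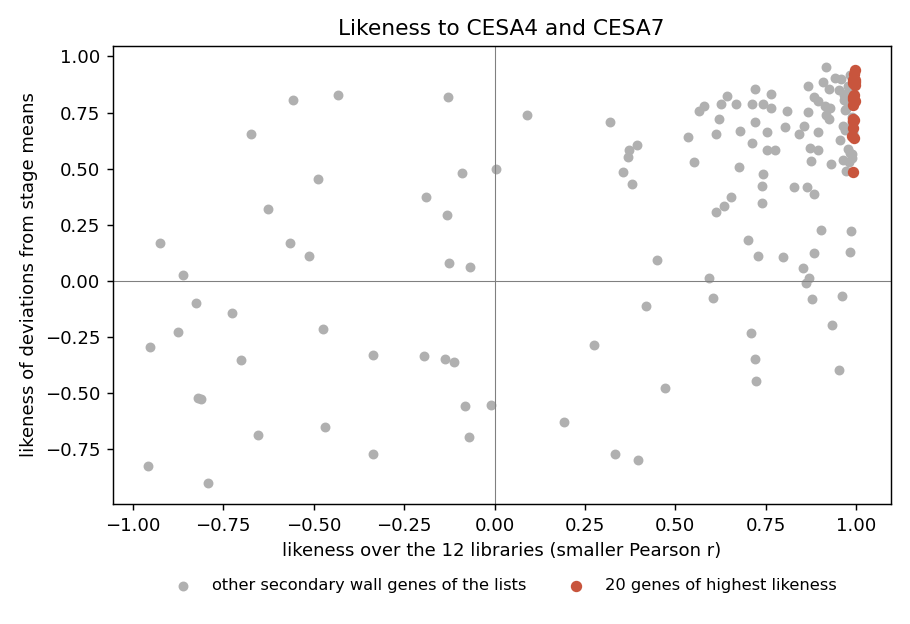
Likeness to CESA4 and CESA7 over the 12 libraries (x axis) against the likeness of the deviations from the stage means (y axis), both the smaller of the values of Pearson's r. The 20 closest genes (red) lie between 0.9895 and 0.997 on the x axis but spread from 0.485 to 0.942 on the y axis, and the other list genes (grey) cover most of the range.

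Markers of other tissues also differed between the stages. Cyclin B, histone H3 and histone H4 genes, taken for dividing cells (14 of 18 tested, 3 at 0 in every library), summed to 769 to 1022 FPKM in the H-40 and H-60 libraries and 1572 to 4410 FPKM in those of H-10 and H-25, without overlap. Without the histone H3.3 genes, which are also expressed outside division, they summed to 144 to 388 FPKM late and 874 to 2959 FPKM early. Phloem genes (13 of 19 tested, 2 at 0) summed to 164 to 255 FPKM at H-40 and H-60 and 46.7 to 190.3 FPKM in the earlier libraries. Photosynthetic genes (19 of 20 tested, 1 at 0) summed to 7330 to 17370 FPKM late and 4988 to 14261 FPKM early. Epidermal genes (18 of 28 tested, 2 at 0) ran from 126.7 to 312.6 FPKM late and from 171 to 251.5 FPKM early, and heat shock proteins (39 of 50 tested, 6 at 0) from 2892 to 4973 FPKM late and from 3578 to 6283 FPKM early, so that these lists overlapped. H-25 replicate 2, where CESA4 and CESA7 were high, lay outside the other H-25 libraries in every list. It had 155.8 FPKM of phloem genes against 70 and 46.7 FPKM in the others, 14261 FPKM of photosynthetic genes against 9812 and 9195 FPKM, 238 FPKM of epidermal genes against 171 and 181 FPKM, and 4812 FPKM of heat shock proteins against 4252 and 4369 FPKM. The list for dividing cells was lower there, at 2222 FPKM against 4410 and 3768 FPKM. The part of these differences in the levels of CESA4 and CESA7 was not tested.

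The table has 9 further genes whose second description names CESA4, CESA7, CESA8 or CESA9 without a matching product name, and these stayed between 0 and 13.6 FPKM. LOC109836392 and LOC109836393 lie on the plus strand and overlap with the span of CESA7 by 1475 and 1552 bases, and LOC109844017 overlaps with CESA9 by 2893 bases. The libraries were strand-specific but the strand option of the counting is not stated, so a part of the fragments of such pairs could have been counted for the other strand. LOC109836392 had 0.938 to 3.88 FPKM and LOC109836393 0 to 0.926 FPKM over the 12 libraries, far below the 321 to 859.8 FPKM of CESA7 at H-40 and H-60.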

How the data were processed

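The authors deposited FPKM for 35166 genes in 12 libraries. Among the tools of the submitters' processing notes are DESeq2, featureCounts, HISAT2 and StringTie, with no settings, and a genome build is not named in the sources. All 32237 genes found in RefSeq share start and end with Aspof.V1. Column names carry H1 to H4, which were read as the 4 heights in increasing order. The 4 columns of group means were not used. FPKM times gene length gave whole fragments (100% of values, tolerance 0.01), and the step per fragment was not the inverse of a library's total, which means that a further scaling between libraries is contained in the deposited values. CESA4, CESA7 and all lists were chosen with earlier results of these data known.

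Genes that reached 1 FPKM in 3 or more libraries were fitted with limma 3.58.1 in R 4.3.3 on log2(FPKM + 1), with 1 mean per stage over all 12 libraries and a trended eBayes, tested on simulated data. Benjamini-Hochberg adjustment ran over all 20352 tested genes, and a call needed an adjusted p of at most 0.05 and an absolute log2 change of at least 1. Fold changes are the later minus the earlier stage and understate the change of low genes. The named genes are CESA4 and CESA7, all CESA genes, the 20 genes of highest likeness and the 3 tested genes of highest mean FPKM in each list, apart from those said to be chosen by value. Lists and markers follow words of the RefSeq product name, and the marker list without histone H3.3 was added after seeing the data. Python 3.11.15, numpy 2.4.6, pandas 2.3.3, scipy 1.17.1 and matplotlib 3.10.9 were used.

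Same-numbered libraries of H-40 and H-60 deviated together (r of 0.115, 0.123 and 0.105), which meets the criterion for pairing (every r over 0.1), although no source says what the number marks. For H-10 vs. H-25 (0, 0.156 and 0.239) and H-25 vs. H-40 (0.331, 0.208 and -0.055) it was not met. Alternatives were other pseudocounts, filters and scalings (TPM, quantile normalization, voom on the recovered fragments), only the 2 stages compared, a robust eBayes, a replicate block, and each library left out in turn.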

Additional observations from a re-analysis of the deposited data

How the results depend on the processing

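In H-25 vs. H-40 all alternatives kept the number of genes called and of list genes called within 1.5 times the reported 4897 and 90. H-10 vs. H-25 depended on the processing, and the cause was not tested. Its 905 genes became 205 with only the 2 stages compared and 338 to 2054 with 1 library left out, where H-25 replicate 2 gave 2054 when left out, its replicate 3 gave 338, its replicate 1 gave 405, and H-10 replicate 2 gave 367. Its 8 list genes became 19 with TPM, 14 with voom, 0 with only the 2 stages and 1 to 44 with 1 library left out (44 without H-25 replicate 2, 3 without H-25 replicate 1, 1 without H-25 replicate 3 or H-10 replicate 2). TPM shifted the median of all genes by -0.19 and voom by -0.15 there, and calls in the higher direction went to 15.5% and 18.8% of all calls, against 34.6%. In H-40 vs. H-60, 1080 genes became 625 at a mean FPKM of at least 5, which tests fewer genes, and 631 to 1280 with 1 library left out (682 without H-40 replicate 3, 631 without H-60 replicate 2), and 21 list genes became 13 and 12 to 26 (12 without H-40 replicate 3). The share of higher calls, 56.9%, was 45.4% with a pseudocount of 0.1 and 42.4% at a mean FPKM of at least 5.

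With the replicate block, 13 list genes were called in H-10 vs. H-25, all 8 reported ones among them, 91 in H-25 vs. H-40 and 20 in H-40 vs. H-60, where 1 call was lost. Only in H-40 vs. H-60 did same-numbered libraries meet the criterion for pairing, and no source says what the numbers mark. In all, 10 of 12 libraries correlated best with their own number, which is a hint from the data only.

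As TPM, CESA4 averaged 9.29 at H-10, 571 at H-40 and 1012 at H-60, and CESA7 8.20, 596 and 1031, while the ratio does not depend on the scaling. The share of the 3 subunits among CESA genes, an alternative added after seeing the data, stayed between 50.1% and 58.6% at H-60 and between 33.2% and 35.4% at H-40 with 1 library left out. Of the 20 genes of highest likeness, 4 remained with Spearman's rho, 2 with deviations from stage means, and 13 to 19 with 1 library left out (13 without H-10 replicate 1). Of 2241 alternative values of single named genes, 2184 stayed on the same side of the threshold, 47 passed it newly and 10 no longer passed. Direction was compared only where a gene was called in the main or the alternative setting, and 0 of these values reversed. The lowest CESA4 value, 2.05 FPKM, has a counting interval of 1.69 to 2.46 FPKM, narrower than the 2.05 to 8.03 FPKM of the H-25 libraries. The upper end of that range is H-25 replicate 2, and replicate 1 had 2.39 FPKM. For the ratio of CESA4 to CESA7 at H-25, each counting interval was wider than the spread of the libraries.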
